A study of Mus with 6 samples.

Results

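Chemokines are small secreted proteins that direct the movement of leukocytes, and atypical chemokine receptors bind chemokines without the usual G protein signal. The genes described here are 4 CXC ligands (Cxcl1, Cxcl2, Cxcl3 and Cxcl16), 2 CC ligands (Ccl2 and Ccl3) and 2 atypical receptors (Ackr3 and Ackr4), 8 of the 55421 genes counted in each library. They were chosen by name and found in the count tables by their Ensembl identifiers, and the rule itself uses no measured value. The names were picked with earlier results of these data known, and 7 of the 8 identifiers come from supplementary tables that lean towards changed genes, which limits every comparison of the members' shares with those of all genes. RNAseq was performed on lens epithelial cells (LECs) left attached to the lens capsule of C57BL/6 wildtype mice at 0 h and at 6 h after surgical removal of the lens fiber cells, a mouse model of cataract surgery (PCS, post cataract surgery). There were 3 libraries per time, each made from 5 pooled capsules. The labels give an age of 2 months, whereas the paper's methods give an older range and mice of both sexes. The eyes of a mouse were operated 6 h apart and harvested together, so pools of the 0 h and 6 h groups may hold capsules of the same mice, though the labels do not say which. All capsules had thus been through the surgery, and the 0 h group differs from the 6 h group in the time that the LECs then stayed in the eye. The comparison addresses which transcripts of LECs differ 6 h after the injury.

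Chemokines form gradients that leukocytes read through receptors coupled to G proteins. Cxcl1, Cxcl2 and Cxcl3 act on the receptor Cxcr2 and attract neutrophils, Ccl2 acts on Ccr2 and attracts monocytes, and Ccl3 attracts monocytes and other leukocytes. Cxcl16 is made as a membrane protein with a chemokine domain and binds Cxcr6. Ackr3 takes up Cxcl12 and Cxcl11, and Ackr4 takes up Ccl19, Ccl21 and Ccl25. In the eye, chemokines from injured tissue are known to draw leukocytes into the anterior segment.

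Read pairs counted on genes ran from 20253239 to 24701039 per library at 0 h PCS (median 21318621) and from 18039974 to 22496116 at 6 h PCS (median 18949474). Levels are given as CPM, the count per 1000000 counts after TMM scaling, as mean ± SD (n = 3 libraries), and a log2 fold change is 6 h minus 0 h with its standard error (SE) from edgeR. A gene was a DEG if its Benjamini-Hochberg adjusted p over the 16810 genes tested was at most 0.05 and its fold change was above 2. Of the lens epithelial markers with a known identifier (6 of 10), the summed level was 1700 to 1925 CPM at 0 h and 1510 to 1772 CPM at 6 h, with Prox1 the most abundant over all 6 libraries together, though not at 6 h alone. Prox1 went from 644 to 383 CPM (log2 fold change -0.75, adjusted p = 0.0119) and Sox2 from 54.4 to 33.5 CPM (-0.70, adjusted p = 0.0151), with all 6 h libraries below all 0 h libraries, while Epha2 was a DEG higher at 6 h (1.21, adjusted p = 0.0134). Pax6 (573 and 402 CPM, adjusted p = 0.156) and Foxe3 (86.9 and 105.7 CPM, adjusted p = 0.249) did not pass the test. Genes listed as markers of other cell types were also counted. The summed CPM of 11 macrophage and monocyte markers was 24.8 to 47.2 at 0 h and 34.5 to 70.7 at 6 h. That of 5 erythrocyte markers was 7.94 to 19.5 and 73.5 to 132.7, and that of 4 pigment cell markers was 51.4 to 208.8 and 77.4 to 1965. All 5 erythrocyte markers were DEGs higher at 6 h, beside 4.53% of all tested genes. As the identifiers at hand lean towards changed genes, this share is not to be read against that of all genes. Hbb-bt (3, 17 and 2 counts at 0 h) passed the low-count filter through its 6 h libraries. The macrophage and pigment cell sums overlapped between the groups. So did those of 5 endothelial (4.44 to 27.1 and 20.8 to 37.6 CPM), 4 stromal (292 to 330.1 and 213 to 317 CPM) and 3 corneal epithelium markers (348 to 495 and 318 to 451 CPM). Kdr (12.3 and 20.8 CPM) was the most abundant endothelial marker and overlapped, as did Tek and Plvap. Pecam1 (0.791 and 3.13 CPM) and Cdh5 (0.219 and 2.24 CPM) had all 6 h libraries above all 0 h libraries but were not DEGs. Pdgfra (212 and 127 CPM), the most abundant stromal marker, and Dcn (5.03 and 1.78 CPM) had all 6 h libraries below all 0 h libraries. Col1a1 and Col1a2 overlapped. Most of the corneal sum was Aldh3a1 (436 CPM at 0 h and 279 CPM at 6 h, adjusted p = 0.0725). The corneal keratins Krt12 (2.97 and 55.4 CPM, log2 fold change 4.23, adjusted p = 0.0792) and Krt5 (3.44 and 31.5 CPM, 3.21, adjusted p = 0.146) had all 6 h libraries above all 0 h libraries but were not DEGs. In bulk samples, fewer cells of a type and less RNA per cell cannot be told apart.

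The CXC ligands of Cxcr2 lie close together on chromosome 5. On GRCm38.p6, Cxcl3 (ENSMUSG00000029379, chr5:90786101-90788093), Cxcl1 (ENSMUSG00000029380, chr5:90891245-90893121) and Cxcl2 (ENSMUSG00000058427, chr5:90903899-90905938) fall within 119838 bases, and 10777 bases separate Cxcl1 from Cxcl2. Cxcl16 (ENSMUSG00000018920, chr11:70454389-70459984), Ccl2 (ENSMUSG00000035385, chr11:82035577-82037452) and Ccl3 (ENSMUSG00000000982, chr11:83647843-83649378) are on chromosome 11, with Ccl7 lying 8259 bases from Ccl2. Ackr3 (ENSMUSG00000044337) is at chr1:90203980-90215724 and Ackr4 (ENSMUSG00000079355) at chr9:104097682-104126643. The positions of 3 members overlap another gene: Cxcl16 shares 552 bases with Zmynd15, Ccl3 shares 755 bases with Ccl4, and Ackr4 lies wholly inside Acad11 over 28962 bases. The strand setting of the counting was not given in the sources used here, so reads from overlapping genes cannot be told apart in these counts.

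Of the 8 members, 7 passed the filter on low counts, and 2 of these were DEGs higher at 6 h PCS: the ligand Cxcl16 and the receptor Ackr3. No member was a DEG lower at 6 h, and none of the 7 had a negative log2 fold change. Among all 16810 genes tested, 5.35% were DEGs, 4.53% higher and 0.821% lower. An adjusted p of at most 0.05 was reached by 2 of the 7 tested members and 8.33% of all tested genes, and an unadjusted p under 0.05 by 6 of the 7 and 23.0%. All 3 libraries at 6 h lay above all 3 libraries at 0 h for 7 of the 8 members (all 6 ligands and Ackr3), and for 6 of the 7 that were tested, beside 15.3% of all tested genes. The median log2 fold change of the 7 tested members was 2.54 and that of all tested genes was -0.003. These counts and the median are a description and not support, since Ccl3 passed the low-count filter through its 6 h libraries and Cxcl3 had no counts at 0 h, so both had to be higher at 6 h. With groups of this size the smallest two-sided permutation p is 0.10, so the p-values printed come from the edgeR model across all genes.

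**Figure D1:**
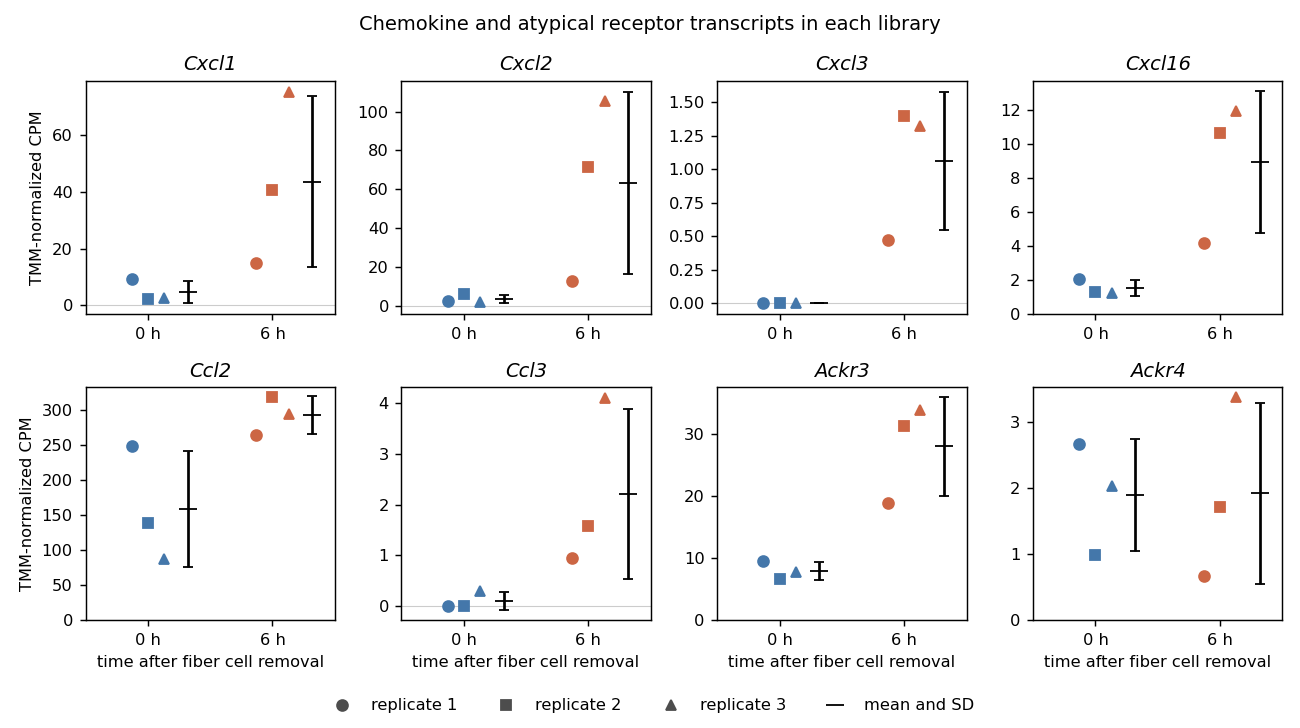
TMM-scaled CPM of each of the 8 members in each library (points), with the mean and SD of the 3 libraries at 0 h and at 6 h PCS, each panel on its own linear axis. In every panel but that of Ackr4 the 3 libraries at 6 h sit above the 3 at 0 h, and 6 h replicate 1 is the lowest of the 6 h libraries in all 8.

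Cxcl1 encodes the neutrophil chemokine KC. Its levels were 9.16, 2.22 and 2.50 CPM in 0 h replicates 1 to 3 and 15.04, 40.6 and 75.4 CPM in 6 h replicates 1 to 3. The 6 h libraries were all higher than the 0 h libraries, but 0 h replicate 1 stood above its group and 6 h replicate 1 stood below its group, at 1.64 times that library. The mean went from 4.63 ± 3.93 to 43.7 ± 30.3 CPM (SD, n = 3 each) with a log2 fold change of 3.24 (SE 0.89), which was not a DEG (edgeR quasi-likelihood F-test, adjusted p = 0.106).

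Cxcl2 encodes MIP-2, a second ligand of Cxcr2 next to Cxcl1 on the chromosome. Its levels were 2.71, 5.90 and 1.73 CPM at 0 h and 13.0, 71.5 and 105.7 CPM at 6 h, in replicate order. Replicates 2 and 3 at 6 h were far above replicate 1, and that lowest 6 h library was 2.19 times the highest 0 h library. The mean changed from 3.45 ± 2.18 to 63.4 ± 46.9 CPM, with a log2 fold change of 4.19 (SE 0.98) and an adjusted p of 0.0752, so Cxcl2 did not pass the threshold.

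Without 6 h replicate 1, Cxcl2 was a DEG (log2 fold change 4.67, adjusted p = 0.0177), whereas leaving out any single library left Cxcl1 with an adjusted p over the threshold (0.0615 to 0.240). The log2 fold change of Cxcl1 was 4.20 without 0 h replicate 1 and 2.59 without 6 h replicate 3, and that of Cxcl2 was 4.83 without 0 h replicate 2 and 3.61 without 6 h replicate 3. The adjusted p of Cxcl2 ran from 9.14e-05 to 0.308 over all the alternative analyses, and that of Cxcl1 from 0.00342 to 0.489. Both were DEGs with DESeq2 (adjusted p = 0.00342 for Cxcl1 and 9.14e-05 for Cxcl2), with the exact test of edgeR (0.00436 and 0.000359) and without robust estimation (0.0217 and 0.0106).

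Cxcl3, the third Cxcr2 ligand in the group, was not detected at 0 h PCS (0 counts in each library) and had 7, 31 and 22 counts at 6 h, or 0.470, 1.39 and 1.33 CPM. With 3 counts per library taken as the floor for 0 h (0.123 CPM on average), the 6 h mean of 1.06 ± 0.51 CPM was at least 8.67-fold higher. It did not pass the low-count filter, so it was not tested there. With the filter removed it was a DEG (adjusted p = 0.000772), while in the 4 leave-one-out analyses that kept it the adjusted p was 0.0294 without 6 h replicate 1 and 0.0525 to 0.0719 in the rest. As Cxcl3 had 0 counts at 0 h, it could only be higher at 6 h, so these calls are a description of the settings and not support.

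Cxcl16 encodes a chemokine anchored in the membrane. Its levels were 2.07, 1.31 and 1.21 CPM at 0 h and 4.16, 10.7 and 11.9 CPM at 6 h. The groups did not overlap, and 6 h replicate 1 was again the lowest of its group. Cxcl16 was upregulated from 1.53 ± 0.47 to 8.92 ± 4.17 CPM, with a log2 fold change of 2.54 (SE 0.45) and an adjusted p of 0.00826 by the same test. It remained a DEG when any single library was left out (log2 fold change 2.28 to 2.88, adjusted p 0.00199 to 0.0367), and was not a DEG against a fold of 2 in glmTreat (adjusted p = 0.0678).

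Ccl2 encodes the monocyte chemoattractant MCP-1 and was by far the most abundant of the members in counts. Its levels were 249.6, 139.7 and 88.3 CPM at 0 h and 265, 319 and 295 CPM at 6 h. The 6 h libraries were above the 0 h libraries, yet 0 h replicate 1 came close to the lowest 6 h library. The spread was 51.8% of the mean at 0 h (159 ± 82.4 CPM) and 9.30% at 6 h (293 ± 27.3 CPM). The log2 fold change was 0.88 (SE 0.34), with an unadjusted p of 0.0362 and an adjusted p of 0.178, so Ccl2 was not a DEG. Without 0 h replicate 1 it was one, with a log2 fold change of 1.36 and an adjusted p of 0.0171.

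Ccl3 encodes MIP-1 alpha. Its counts were 0, 0 and 7 at 0 h and 14, 35 and 68 at 6 h, or 0, 0 and 0.302 CPM and 0.940, 1.57 and 4.10 CPM. Counts at 0 h came from replicate 3 alone, and 6 h replicate 3 was the highest of its group. The log2 fold change was 4.41 (SE 1.24) with an adjusted p of 0.0583, above the threshold. Without 0 h replicate 3, the library that holds the 0 h counts, Ccl3 was a DEG (adjusted p = 0.0218), and the fitted fold then rests on the prior count and is no bound. Ccl3 was a DEG in 7 of the 16 alternative analyses that tested it, 6 of which kept all the 0 h counts: DESeq2 (0.0015), the exact test (0.00524), the edgeR 4 method (0.0173), library size scaling (0.0453), no low-count filter (0.000164) and the replicate block (0.0152). Its adjusted p ran from 0.000164 to 0.254 over the alternatives. As Ccl3 passed the low-count filter through its 6 h libraries, these calls are a description of the settings and not support.

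Ackr3 encodes the atypical receptor for Cxcl12. Its levels were 9.51, 6.59 and 7.72 CPM at 0 h and 18.9, 31.3 and 33.9 CPM at 6 h. The lowest 6 h library was above the highest 0 h library, and 6 h replicate 1 was lower than the other 6 h libraries. Ackr3 was upregulated from 7.94 ± 1.47 to 28.0 ± 8.03 CPM, with a log2 fold change of 1.82 (SE 0.26) and an adjusted p of 0.00264. It was a DEG in all 6 leave-one-out analyses (log2 fold change 1.66 to 2.03, adjusted p 0.000798 to 0.0165), and its adjusted p against a fold of 2 in glmTreat was 0.0628.

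Ackr4 encodes the atypical receptor for Ccl19, Ccl21 and Ccl25. Its levels were 2.67, 0.984 and 2.03 CPM at 0 h and 0.671, 1.71 and 3.37 CPM at 6 h. The groups overlapped, with the lowest library and the highest library both at 6 h. The means were 1.89 ± 0.85 and 1.92 ± 1.36 CPM, and the log2 fold change was 0.02 (SE 0.64, adjusted p = 0.988). Its sign changed without 0 h replicate 2 (-0.29), without 6 h replicate 3 (-0.65), and with library size scaling (-0.28), so no direction is given for Ackr4.

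**Figure D2:**
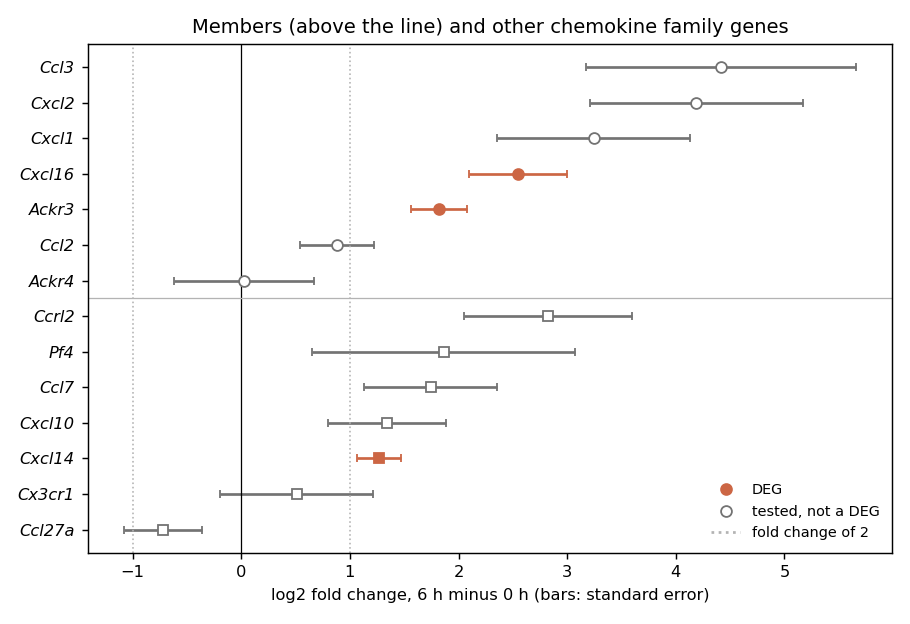
Log2 fold changes (6 h minus 0 h PCS, x axis) of the 7 tested members (circles) and of 7 tested genes of the wider chemokine family (squares), with their SE. Filled orange symbols are DEGs (Cxcl16, Ackr3 and Cxcl14), and the dotted lines mark a fold change of 2.

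**Figure D3:**
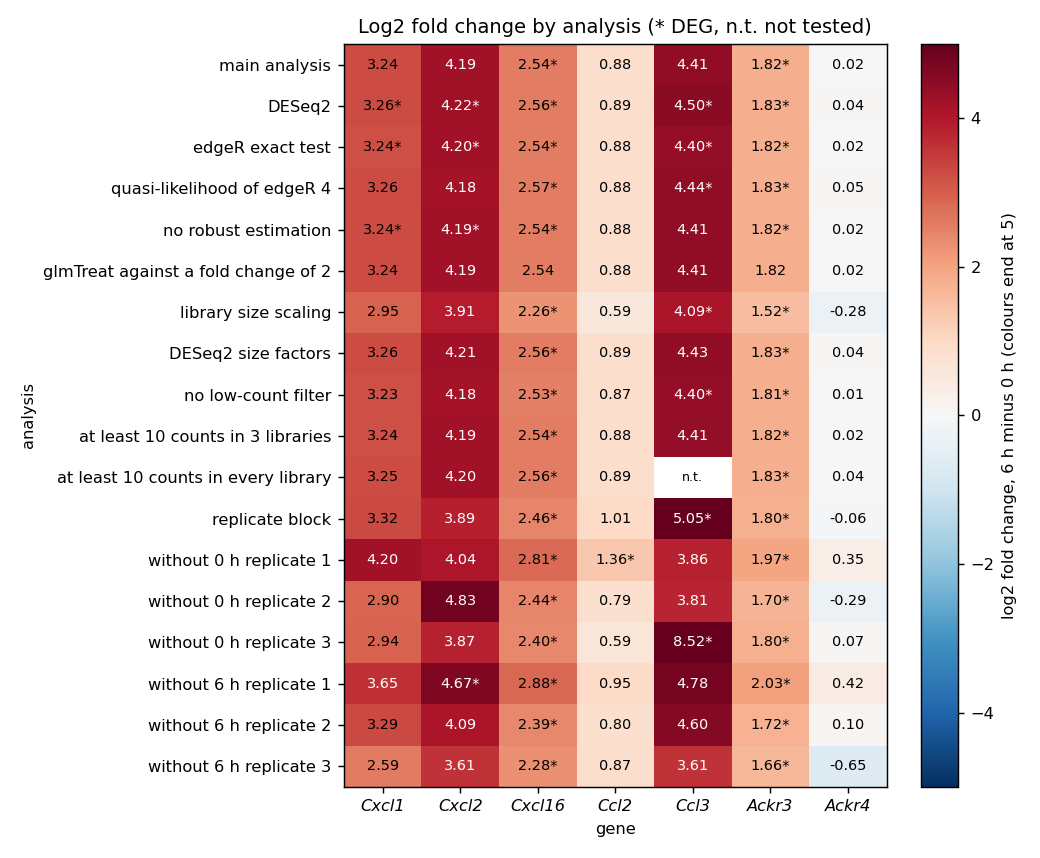
Log2 fold change of each tested member (columns) in each analysis (rows), with an asterisk where it was a DEG and n.t. where it was not tested, and with colours that end at 5. Cxcl16 and Ackr3 were DEGs in all the analyses but glmTreat, and the value of 8.52 for Ccl3 without 0 h replicate 3 has no 0 h counts behind it.

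To compare levels between genes, FPKM were computed from exon lengths, which were at hand for 6 members. At 6 h PCS, Cxcl2 had the highest mean level per length (28.1 ± 20.5 FPKM), followed by Cxcl1 (21.1 ± 14.3), Ackr3 (7.59 ± 2.55), Cxcl16 (2.69 ± 1.35), Ccl3 (2.58 ± 1.90) and Cxcl3 (0.279 ± 0.149). The libraries overlapped between Cxcl2 and Cxcl1, between Cxcl1 and Ackr3, and between Cxcl16 and Ccl3 over the 3 libraries, as they did between Cxcl2 and Ackr3 and between Ackr3 and Ccl3, and no test of these differences was made. Within each 6 h library, Cxcl1 was above Ackr3, whereas Cxcl2 was below Cxcl1 in replicate 1 and above it in replicates 2 and 3. At 0 h the order was Cxcl1 (2.72 ± 2.26 FPKM), Ackr3 (2.64 ± 0.45), Cxcl2 (1.85 ± 1.17), Cxcl16 (0.562 ± 0.159) and Ccl3 (0.150 ± 0.261), with Cxcl3 listed at 0. The first 3 in that order overlapped between libraries. Cxcl1, Cxcl2, Cxcl16, Ccl3 and Ackr3 had a mean above 2 FPKM in either group together with a change above 2 FPKM, whereas Cxcl3 did not. Ccl2 and Ackr4 are not placed in this order, as no exon length was at hand for them.

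**Figure D4:**
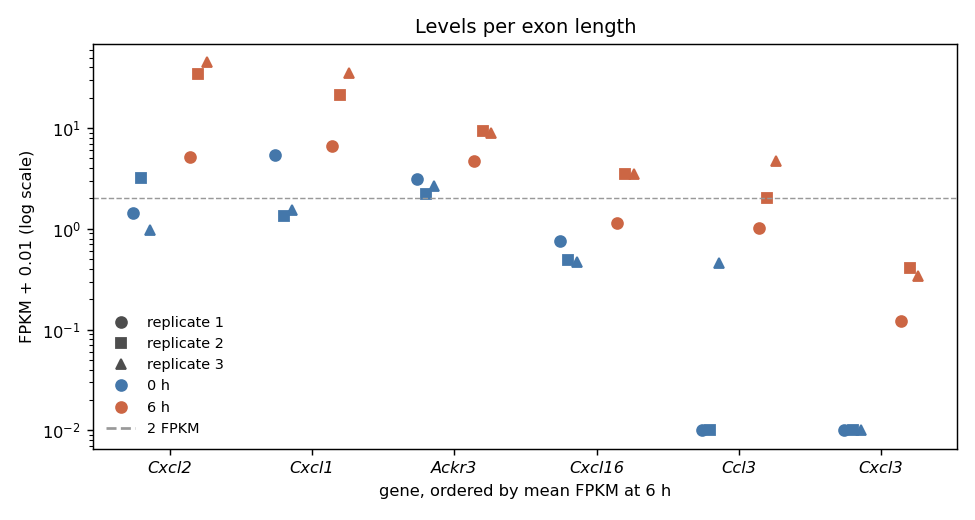
FPKM plus 0.01 (log scale) of the 6 members with an exon length, in each library at 0 h (blue) and 6 h PCS (orange), with genes ordered by the mean FPKM at 6 h and a dashed line at 2 FPKM. Cxcl2 and Cxcl1 lead at 6 h with wide spread, while Cxcl3 stays below 1 FPKM in every library.

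The make-up of the members' counts also differed between libraries. Ccl2 held 90.5%, 89.1% and 85.1% of the read pairs on the members in 0 h replicates 1 to 3, and 83.3%, 66.8% and 55.6% in 6 h replicates 1 to 3. The shares of Cxcl2 were 0.983%, 3.77% and 1.66% at 0 h and 4.07%, 14.97% and 19.9% at 6 h. Ccl2 therefore took a smaller share of the members in each 6 h library, and most so in 6 h replicate 3. Without TMM scaling, read pairs on the members were 301, 174 and 119 per 1000000 gene counts at 0 h and 263, 473 and 465 at 6 h. On that scale 0 h replicate 1 exceeded 6 h replicate 1, but with TMM scaling the order was the reverse. The CXC ligands summed to 13.9 CPM in 0 h replicate 1 and 32.6 CPM in 6 h replicate 1. The CC ligands had 249.6 and 265.8 CPM there, and the atypical receptors 12.2 and 19.5 CPM. The ratio of Cxcl2 to Cxcl1 in FPKM was 0.268, 2.41 and 0.625 at 0 h and 0.781, 1.60 and 1.27 at 6 h, and the groups overlapped.

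The spread among the 6 h libraries ran in a like order for most members. Replicate 1 was the lowest 6 h library for 8 of 8 members, beside 35.7% of all tested genes, and replicate 3 was the highest for 6 of 8, beside 34.1%. Replicate 1 at 6 h also had the smallest share of read pairs on genes (33.6%, against 39.5% to 41.2% in the other libraries), the largest share not aligned (44.1%) and the lowest TMM factor (0.827), and the part of these in the members' levels was not tested. In the same order of libraries, the summed pigment cell markers were 77.4, 456 and 1965 CPM, with Dct, a melanin synthesis gene, the most abundant, and 0 of the 4 were DEGs or had an unadjusted p under 0.05. Pigment markers were also present at 0 h, at 208.8, 63.8 and 51.4 CPM. The macrophage and monocyte sum was 34.5, 67.7 and 70.7 CPM at 6 h, and 10 of its 11 genes were lowest in replicate 1. The erythrocyte, stromal and corneal sums were also lowest in 6 h replicate 1, and the endothelial and lens epithelial sums were not. Of those 11 genes, Cd14 (log2 fold change 3.91, adjusted p = 0.00409) and Cd68 (2.55, adjusted p = 0.0129) were DEGs, and Ptprc, the pan-leukocyte gene Cd45, was not (1.29, adjusted p = 0.374). Over these 11 genes the median log2 fold change was 0.16, and 9 were not DEGs, with log2 fold changes from -0.16 (Lyz2) to 1.502 (Itgam). Of all tested genes 4.53% were DEGs higher at 6 h, and the identifiers at hand lean towards changed genes. Markers of neutrophils and lymphocytes were not analysed here, as no identifier was at hand. The part of these cell types in the members' levels was not tested.

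**Figure D5:**
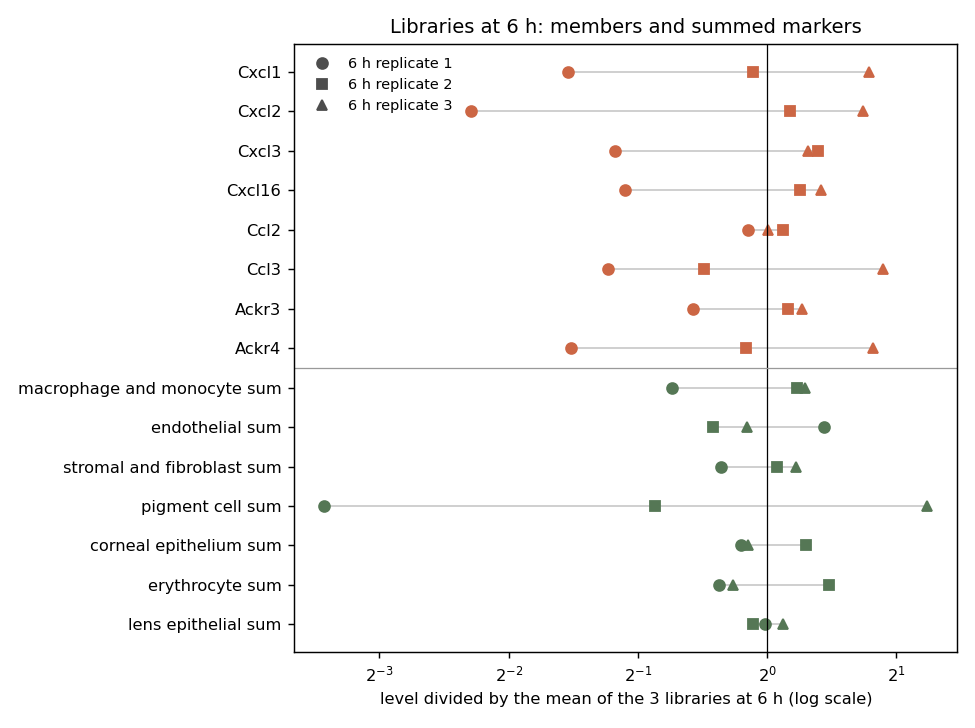
Level of each member (orange) and summed level of each marker list with more than 1 identified gene (green) in the 3 libraries at 6 h PCS, divided by their mean (log scale). Replicate 1 is lowest for all 8 members and in the macrophage and monocyte, erythrocyte, stromal, corneal and pigment cell sums, but not in the endothelial and lens epithelial sums. The pigment cell sum has the widest spread, while Ccl2 and the lens epithelial sum vary little.

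Other chemokine family genes were taken from a list of 53, of which 9 had a known identifier and 7 were tested. Of these, 1 was a DEG higher at 6 h, Cxcl14, and none was a DEG lower (nor with DESeq2, and none lower had an unadjusted p under 0.05), where 4.53% and 0.821% of all tested genes were. As the identifiers at hand lean towards changed genes, this share is not to be read against that of all genes. Cxcl14, a chemokine of epithelia, had 39.3, 33.9 and 37.5 CPM at 0 h and 93.7, 62.4 and 111 CPM at 6 h. The groups did not overlap, and unlike the members its lowest 6 h library was replicate 2. Its log2 fold change was 1.27 (SE 0.20, adjusted p = 0.00499), and with library size scaling it was 0.94, under a fold of 2.

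Ccl7, which lies near Ccl2 and also attracts monocytes, had 18.4, 12.4 and 3.06 CPM at 0 h and 38.3, 30.3 and 44.8 CPM at 6 h. The groups did not overlap, but its log2 fold change of 1.74 (SE 0.61) had an adjusted p of 0.162. Ccl7 was a DEG with DESeq2, with the exact test of edgeR and without 0 h replicate 3. Ccrl2, an atypical receptor that binds chemerin, went from 0.336 ± 0.209 to 2.39 ± 1.42 CPM, with a log2 fold change of 2.82 (SE 0.77) and an adjusted p of 0.0529. It was a DEG with DESeq2, the exact test, the edgeR 4 method, no low-count filter, the replicate block and without 6 h replicate 2. With 13, 4 and 7 counts at 0 h, Ccrl2 passed the low-count filter through its 6 h libraries, so these values are a description and not support. Cxcl10, an interferon-induced ligand, had a log2 fold change of 1.34 (SE 0.54, adjusted p = 0.195), and Ccl27a one of -0.72 (SE 0.36, adjusted p = 0.267).

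Pf4 and Ppbp, platelet chemokine genes on chromosome 5, lie 12717 and 16037 bases from Cxcl3. Pf4 had 2.28, 1.60 and 0.259 CPM at 0 h and 0.336, 3.01 and 11.8 CPM at 6 h, with overlapping groups (log2 fold change 1.86, SE 1.21, adjusted p = 0.419). Ppbp was not tested and had 5, 0 and 2 counts at 0 h and 5, 8 and 162 counts at 6 h. Both were highest in 6 h replicate 3, as were Cxcl1, Cxcl2, Cxcl16, Ccl3, Ackr3 and Ackr4. Ccl4, which overlaps Ccl3, had 0, 1 and 0 counts at 0 h and 2, 1 and 26 at 6 h.

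Of 10 genes for receptor coupling, scavenging and shedding, 3 had an identifier, and 1 of these was a DEG higher at 6 h, beside 4.53% of all tested genes and with the same limit on the identifiers. Adm, which encodes adrenomedullin, a peptide that Ackr3 also binds, had 5.08, 2.15 and 3.71 CPM at 0 h and 19.0, 43.0 and 43.9 CPM at 6 h. As for Ackr3, 6 h replicate 1 was the lowest 6 h library and stood above all 0 h libraries. Adm was upregulated with a log2 fold change of 3.28 (SE 0.42, adjusted p = 0.00266). Grk5, a receptor kinase, had a log2 fold change of 0.03 (adjusted p = 0.941), and Mif, a cytokine that binds Cxcr4 and Ackr3, one of -0.52 (SE 0.19, adjusted p = 0.124).

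Of 20 genes known to control chemokine mRNA, namely NF-kB and C/EBP factors, their inhibitors and RNA decay factors, 17 had an identifier and were tested. At 6 h PCS, 12 were DEGs higher and all 17 had a positive log2 fold change, and the median log2 fold change was 1.84, beside 4.53% DEGs higher and a median of -0.003 over all tested genes. The same limit on the identifiers holds for this list, as most symbols come from tables of changed genes. Cebpd (log2 fold change 3.04, SE 0.23, adjusted p = 0.000142) and Cebpb (1.77, SE 0.16, adjusted p = 0.000267) encode C/EBP factors that act on chemokine promoters. Nfkbiz (2.88, SE 0.24, adjusted p = 0.000214) encodes a nuclear NF-kB cofactor, and Rel (2.27, SE 0.29, adjusted p = 0.00201) an NF-kB subunit. Zfp36l1 (3.29, SE 0.26, adjusted p = 0.000214) and Zc3h12a (3.00, SE 0.30, adjusted p = 0.000411) encode proteins that shorten the life of mRNAs. For Rela, an NF-kB subunit, the log2 fold change was 0.91 (adjusted p = 0.0105), below a fold of 2, and Tnfaip3, an inhibitor of NF-kB, had 1.40 (adjusted p = 0.166).

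The members were also compared by the shape of their levels over the 6 libraries, as Pearson's r of log2 values with 0.5 CPM added. The libraries share the group difference, and r is given as a description without a p. Cxcl16 and Ackr3 were most like each other (r = 0.990), and Cxcl16 was the member most like Cxcl1 (0.977) and Cxcl2 (0.962). Ccl2 was most like Cxcl1 (0.867) among the members, and Ccl3 most like Ackr3 (0.931). Ackr4 had no member above 0.391, reached with Cxcl1. Among all named genes, those most like Ackr3 were Fermt2 (0.999), Kazn (0.998) and Fam83g (0.998), and those most like Cxcl2 were Ppp2ca (0.998), Tnfrsf1b (0.998) and Gm49077 (0.996). Mdm2 (0.995), Fam107b (0.995) and Fam43a (0.994) were most like Cxcl1, and Zfp703 (0.998), Npas4 (0.997) and Dyrk1a (0.995) most like Cxcl16. For Ccl2 the list was Ptprc (0.975), Patj (0.954) and Ccl7 (0.948). For Ccl3 it was Slfn2 (0.998), Apol9a (0.996) and Tchh (0.995), and for Ackr4 it was Ddx60 (0.990), Gm3699 (0.979) and Trim68 (0.972).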

How the data were processed

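The authors aligned paired reads of 101 nt, from ribodepleted libraries of the SMARTer Stranded Pico v2 kit, to GRCm38.p6 with HISAT2. HTSeq in union mode assigned the pairs to Ensembl genes, and the authors deposited the raw counts without normalization. Gene counts were 33.6% to 41.2% of the pairs in each library. They were analysed with edgeR 4.0.16 in R 4.3.3 as in the paper's methods: TMM normalization (factors 0.827 to 1.15), the low-count filter of edgeR by group, robust dispersions and the quasi-likelihood F-test in its legacy form, with Benjamini-Hochberg adjustment over 16810 genes. SE is the absolute log2 fold change divided by the square root of F. FPKM used total gene counts and the exon lengths of the supplementary table, known for 1998 genes. Replicates are separate pools. The members and lists were chosen with earlier results of these data known. The named genes were the members, DEGs and most abundant genes of the wider family, the genes of a list with the lowest p, and the genes most like each member. Ccrl2, Grk5, Mif, Rela, Tnfaip3, and the marker genes given singly were named after their values were seen. Symbols were at hand for 7024 genes, and coordinates and neighbours come from RefSeq. On simulated data with 200 changed genes among 15918, edgeR made 166 calls, 155 of them right. Alternatives used DESeq2 1.42.0, other edgeR tests, scalings, filters, a replicate block and leaving out each library. No sequence is printed, since no sequence table was used here. The lens fiber marker list is not reported here.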

Additional observations from a re-analysis of the deposited data

How the results depend on the processing

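Over the alternatives the members called were 2 in the main analysis, 2 with DESeq2 size factors or at least 10 counts in 3 libraries or in every library, and 0 (glmTreat), 3 (edgeR 4 method, library size scaling, replicate block), 4 (no robust estimation, no low-count filter) or 5 (DESeq2, edgeR's exact test), and the leave-one-out counts ran from 2 to 4. DEGs over all genes were 900, with 762 higher and 138 lower, and they were 221, 217 and 4 with glmTreat. With library size scaling 572 were higher and 627 lower, so that lower DEGs outnumbered higher ones. Lower DEGs were 243 with DESeq2, 253 with the exact test and 257 with no filter. When a library was left out, DEGs ran from 553 to 877 in all, 510 to 742 higher and 43 to 140 lower. The wider family had 1 call, 4 with DESeq2 (Cxcl14, Cxcl10, Ccl7 and Ccrl2), 3 with the exact test (Cxcl14, Ccl7 and Ccrl2), 2 with the edgeR 4 method or no filter (Cxcl14 and Ccrl2), and 0 with glmTreat or library size scaling (1 to 2 when a library was left out). Genes of mRNA control had 7 calls with glmTreat and 12 in the main analysis. The sign of Ackr4 turned with library size scaling (-0.28), the replicate block (-0.056), and without 0 h replicate 2 (-0.29) or 6 h replicate 3 (-0.65), with leave-one-out values from -0.65 to 0.42, and the cause was not tested. With library size scaling the median log2 fold change over all genes was -0.32, against -0.003. The labels do not say whether replicate numbers pair the pools. Deviations of same-numbered libraries correlated at 0.00365, 0.223 and 0.139, not every library correlated best with its own number, and the pools were treated as unpaired. The block gave 1050 DEGs, 3 members, including Ccl3, and 2 wider-family genes. No other direction of a member turned. Counts were low for Cxcl3, Ccl3 and Ackr4, at most 68 in a library.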
